A study of Mus musculus with 12 samples.

Results

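The sequences described here are mouse testis piRNAs of 29 to 32 nt that begin with U and carry A at position 10, counted from the 5' end. They were chosen from the deposited piRNA table by sequence alone, without any measured value. The table listed 1018402 distinct sequences, of which 94768 (9.31%) met the rule and are called members below. Testis RNA of 17 to 40 nt came from C57BL/6 males, 4 months of age, and was sequenced before oxidation with sodium periodate (NaIO4) and after it, in both cases from 10, 50 and 100 ng of total RNA. Each of the 6 groups held 2 technical replicates, 12 libraries in all, made by 1 library method with spike-in RNA in proportion to the input. No genotype or treatment of the mice beyond the C57BL/6 background was labelled, and the sources used here do not give the number of mice behind the RNA, so that every p-value below measures the spread between libraries.

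piRNAs guide PIWI proteins in the male germ line, where they silence transposons and, in meiotic and later germ cells, other transcripts. In the adult mouse testis most are pachytene piRNAs, which are cut from long non-coding precursors and bound mainly by MIWI (PIWIL1), whose piRNAs are longer, and by MILI (PIWIL2), whose piRNAs are shorter. A first U is the usual mark of a piRNA whose 5' end was chosen along a precursor, and A at position 10 is the mark of a piRNA cut by another piRNA that begins with U (the ping-pong cycle). The methyltransferase HENMT1 adds a 2'-O-methyl group to the trimmed 3' end. Periodate destroys the free hydroxyls of an unmodified 3' end and so blocks ligation of the adapter, while a methylated end can still be ligated.

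The members that lead the results are printed here as in the table, 5' to 3', with T for U. Capitals mark the first base and the A at position 10. The first set holds the 6 members with the highest means before oxidation. Members 1 and 6 differ only by 1 base at the 3' end.

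member 1: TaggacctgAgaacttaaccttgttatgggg

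member 2: TcacagagaAtcttccagtcagaacaagtc

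member 3: TaaaatgagAacacgagaaaactgctaagt

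member 4: TgacaccagAatgaactcagaagataaagt

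member 5: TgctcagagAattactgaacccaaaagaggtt

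member 6: TaggacctgAgaacttaaccttgttatggg

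The next set holds the member that was highest after oxidation at 10 ng (member 9, chosen after its values were seen), the member with the smallest interaction p (member 10), and the members with large falls (13 to 16) and large rises (18 to 20) after oxidation.

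member 9: TttgaaatcAggactgttctggaaattcc

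member 10: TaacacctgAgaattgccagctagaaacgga

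member 13: TtgactcagAtccaggagtaacactcagct

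member 14: TacaaagtgActtccaggacagccagagc

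member 15: TacagagtgAgttctaggacagtgagact

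member 16: TtgactcagAtccaggagtaacactcagc

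member 18: TaggacagtAtgttgaactcagcagaatcc

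member 19: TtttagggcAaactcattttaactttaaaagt

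member 20: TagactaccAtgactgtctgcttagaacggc

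The libraries held 1924201 to 3347735 reads by the recovered denominator of the RPM values (reads scaled to library size), and 308841 to 628068 of them were reads of members. In RPM, 3 reads came to 0.896 to 1.56 depending on the library. Germ cell miRNAs were present before oxidation, with miR-741-3p at 28164 RPM and miR-34c-5p at 1710 RPM on average, while liver miR-122-5p stood at 1.82 RPM, neuronal miR-124-3p at 2.82 RPM and erythroid miR-451a at 0.436 RPM. The muscle miRNA miR-1a-3p stood at 97.6 RPM, above the lowest germ cell marker, miR-449a-5p at 26.8 RPM, and Sertoli miR-202-5p at 137 RPM. The 2 libraries from 10 ng after oxidation stood apart. In them the reads of the single highest member made up 5.86% and 6.07% of all member reads, against 1.06% to 3.07% in the other 10 libraries. Replicates of this group also differed most, with a chi-square per degree of freedom of 25.5 over members, against 2.16 to 10.6 in the other groups. The main sums and single members are given without the 10 ng libraries where these moved them.

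The members made up 18.2% to 20.52% of all piRNA reads across the libraries, and after oxidation their share of piRNA RPM lay below the range before it at 10 ng and above that range at 50 and 100 ng. It was 18.9% and 19.2% with 10 ng, 19.5% and 19.6% with 50 ng and 19.6% and 19.7% with 100 ng before oxidation. After oxidation it was 18.9% and 18.2% with 10 ng, 20.4% and 20.2% with 50 ng and 20.52% in both libraries with 100 ng. The mean went from 19.43% ± 0.30 to 19.79% ± 0.99 (SD, n = 6 each), a difference of 0.361 percentage points that did not pass an exact 2-sided permutation test of the oxidation labels within inputs (p = 0.222). Without member 9 the difference was -0.0178 percentage points. Expressed over all reads of the authors' denominator, the members rose from 156499 ± 1206 RPM to 180168 ± 11051 RPM (SD, n = 6 each), with a permutation p of 0.00926 (exact), the smallest these 216 label assignments can give. All piRNA sequences together took up a larger part of that denominator after oxidation, 880940 to 919539 RPM against 795481 to 815437 RPM before.

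Against the methylated spike-ins, RNAs whose 3' ends withstand periodate, the members fell at every input. There were 14.2 and 15.2 member reads per methylated spike-in read with 10 ng before oxidation, 11.4 and 13.04 with 50 ng, and 11.7 and 12.1 with 100 ng. After oxidation there were 1.29 and 1.03 with 10 ng, 2.51 and 1.91 with 50 ng, and 2.37 and 2.77 with 100 ng. The groups did not overlap, and the libraries from 10 ng were the highest before oxidation and the lowest after it. The mean log2 difference was -2.79 (exact permutation p = 0.00926, adjusted p = 0.0139 over 3 totals), with -3.68 with 10 ng, -2.48 with 50 ng and -2.21 with 100 ng. Its size depended on the spike-in, with -4.08, -2.80 and -2.11 for the 3 methylated spike-ins taken alone and -2.45 over all spike-in reads (exact permutation p = 0.00926 each). The scale of RPM and the scale of spike-in reads therefore gave opposite directions for the members.

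**Figure D1:**
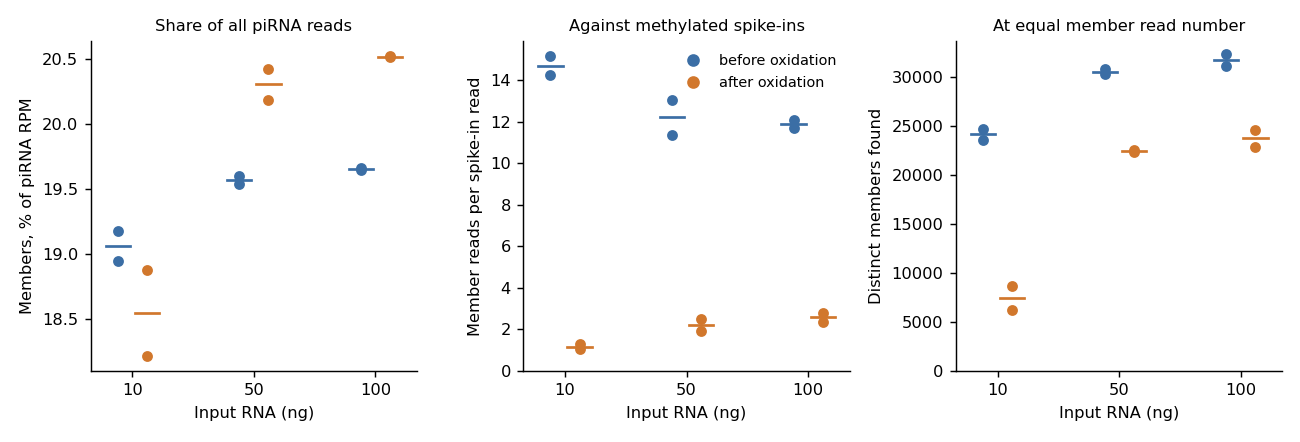
Members by input RNA in ng, before (blue) and after (orange) oxidation; each point is a library and each bar the mean of 2 technical replicates. The left panel gives the members' share of piRNA RPM in percent (axis not from 0), the middle panel member reads per methylated spike-in read, and the right panel the number of distinct members found among 308841 member reads; the 2 libraries from 10 ng after oxidation are the lowest in the middle and right panels.

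Fewer distinct members were found after oxidation, and by far the fewest at 10 ng. Since libraries differed in depth, each was thinned to 308841 member reads, the number in the shallowest library. Before oxidation 24709 and 23618 distinct members were then found with 10 ng, 30335 and 30837 with 50 ng and 32371 and 31127 with 100 ng. After oxidation the numbers were 8621 and 6242 with 10 ng, 22318 and 22613 with 50 ng and 24664 and 22913 with 100 ng. The difference was 3.29-fold with 10 ng, 1.36-fold with 50 ng and 1.34-fold with 100 ng (exact permutation p = 0.00926). The next values are without thinning, so depth differs between libraries. Of the distinct members found in either library of a group, 23.8% were found in both at 10 ng after oxidation, against 38.1% to 41.7% in the other 5 groups. Per library 6242 to 37739 members were found, 2018 members occurred in all 12 libraries and 41807 (44.1%) in only 1.

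Among 29 to 32 nt sequences with a first U, the A at position 10 was somewhat less frequent after oxidation. The share of members in that class was 33.4% to 33.9% before oxidation in the 6 libraries. After it the share was 32.2% and 31.8% with 10 ng, 33.4% and 33.01% with 50 ng and 33.3% and 33.5% with 100 ng. The 2 libraries from 10 ng were the lowest of all 12, and of the 4 from 50 and 100 ng after oxidation only 1 lay within the range before it. The mean difference was -0.83 percentage points (33.7% ± 0.15 to 32.9% ± 0.70, SD, n = 6 each; exact permutation p = 0.00926, adjusted p = 0.0139), with -1.67 with 10 ng, -0.53 with 50 ng and -0.29 with 100 ng, and -0.412 without the 10 ng libraries. The call was lost when the sums took in only the sequences tested singly below, those whose mean reached 5 RPM (difference -0.11, adjusted p = 0.648, exact permutation). At single lengths the share before oxidation ran from 30.6% at 32 nt to 35.1% at 30 nt. None of the 4 lengths of the members, nor 26, 27 or 28 nt, changed at an adjusted p below 0.05 over the 7 lengths. At 30 nt the difference was -1.67 percentage points (adjusted p = 0.0864, exact permutation) and at 27 nt, outside the rule, -3.37 (adjusted p = 0.0648, exact permutation). Without replicate 2 from 100 ng after oxidation 27, 28 and 30 nt were called (adjusted p = 0.0216 each, exact permutation).

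Position 10 was not the position richest in A in this class. Over positions 2 to 28, weighted by RPM before oxidation, A was most frequent at position 5 (48.6% ± 0.21, SD, n = 6), and position 10 ranked 5th of 27 with 33.7%. The mean of the other 26 positions was 31.7%. When each distinct sequence was counted once, position 10 ranked 2nd with 30.5% against a mean of 28.4%, again after position 5 with 35.7%. The A at position 10 was also more frequent in 29 to 32 nt piRNAs that did not begin with U. It was found in 45.1% ± 1.0 of the RPM of sequences beginning with A, 57.3% ± 1.1 of those beginning with C and 45.5% ± 0.60 of those beginning with G (SD, n = 6, before oxidation). These sequences with A10 and another first base were few in RPM, at 3.14% of piRNA RPM before oxidation against 19.4% for the members.

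**Figure D2:**
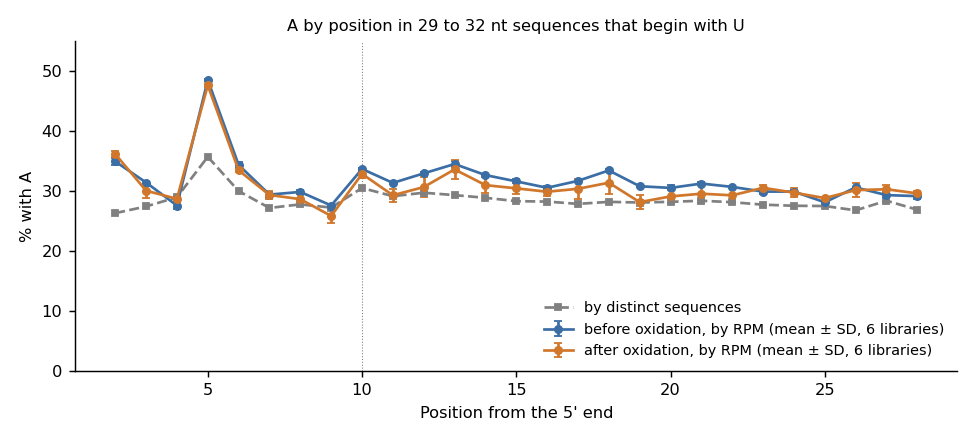
Percent of 29 to 32 nt sequences with a first U that have A at each position from 2 to 28, by RPM before (blue) and after (orange) oxidation (mean and SD of 6 libraries) and by distinct sequences (grey). Position 5 stands out with 48.6% before oxidation, and position 10 (dotted line) has 33.7%.

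A 10-base overlap between the 5' ends of opposite strands is the trace of ping-pong cutting, and it was looked for among all 22726 piRNA sequences with a mean of at least 5 RPM. Of the 3240 distinct 5' ends (first 24 nt) of members in that set, 384 (11.9%) had a first decamer whose reverse complement began a sequence of the set. The sequence itself was not left out of this search. The same count for 29 to 32 nt sequences with a first U and A at the matching position gave 54.3% for an overlap of 8 bases, 24.7% for 9, 1.56% for 11 and 1.08% for 12. Each overlap length uses another set of sequences, so the values are given side by side only. The 384 ends belonged to 545 members. The 667 sequences that were their partners all have a first U and A10, since the reverse complement of such a decamer has both. Of these partners 455 (68.2%) had 29 to 32 nt and so were members, a share set by length alone. In 16 members the first decamer was its own reverse complement. Shared first decamers do not show that 2 sequences came from opposite strands of 1 locus, since no genome was searched.

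By length, 30 nt members were the most abundant, and only the share of 32 nt passed the test after oxidation. Before oxidation 29 nt sequences made up 27.8% ± 0.83 of member RPM, 30 nt 41.8% ± 0.32, 31 nt 23.6% ± 0.85 and 32 nt 6.89% ± 0.28 (SD, n = 6). The 32 nt share fell to 6.32% ± 0.69, by 1.04 percentage points with 10 ng, 0.39 with 50 ng and 0.28 with 100 ng (exact permutation p = 0.00926, adjusted p = 0.037 over 4 lengths). The call was lost without any 1 of the 4 libraries from 50 and 100 ng before oxidation (differences of -0.583 to -0.560), and over sequences of at least 5 RPM (difference -0.231, adjusted p = 0.296, exact permutation). It was -0.336 without the 10 ng libraries. The other 3 lengths did not pass the test, with an adjusted p of 0.346 to 0.417 (exact permutation). The 29 nt share was 33.2% and 32.97% in the 2 libraries from 10 ng after oxidation and 25.2% to 28.8% in the other 10 libraries. Member 9, of 29 nt, was the highest member in those 2 libraries, and without it the 29 nt share fell by 1.06 percentage points on average.

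The last base, where the methyl group sits, moved towards C after oxidation, and most at the lowest input. Before oxidation 40.7% ± 0.35 of member RPM ended in U, 32.8% ± 0.66 in C, 14.4% ± 0.27 in A and 12.04% ± 0.60 in G (SD, n = 6). The share of last C was 33.03% and 33.6% with 10 ng, 33.04% and 33.1% with 50 ng and 32.1% and 31.8% with 100 ng before oxidation. It was 41.7% and 41.8% with 10 ng, 34.4% and 36.3% with 50 ng and 33.3% and 32.9% with 100 ng after it. Each input thus had both oxidized libraries above both others. The mean rise was 3.94 percentage points (exact permutation p = 0.00926, adjusted p = 0.0123 over 4 bases), and 1.70 without the 10 ng libraries. The share of last U fell by 3.32 percentage points and that of last G by 1.14 (both exact permutation p = 0.00926, adjusted p = 0.0123). Last A went from 14.4% to 15.0% and did not pass (adjusted p = 0.0926, exact permutation). The differences without the 10 ng libraries were -1.18 for last U and -0.818 for last G. Last U fell by 7.60 percentage points with 10 ng, dropped by 2.09 with 50 ng and dropped by 0.28 with 100 ng, and its call was lost without either library from 50 ng before oxidation (adjusted p of 0.0864 and 0.0617, exact permutation).

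**Figure D3:**
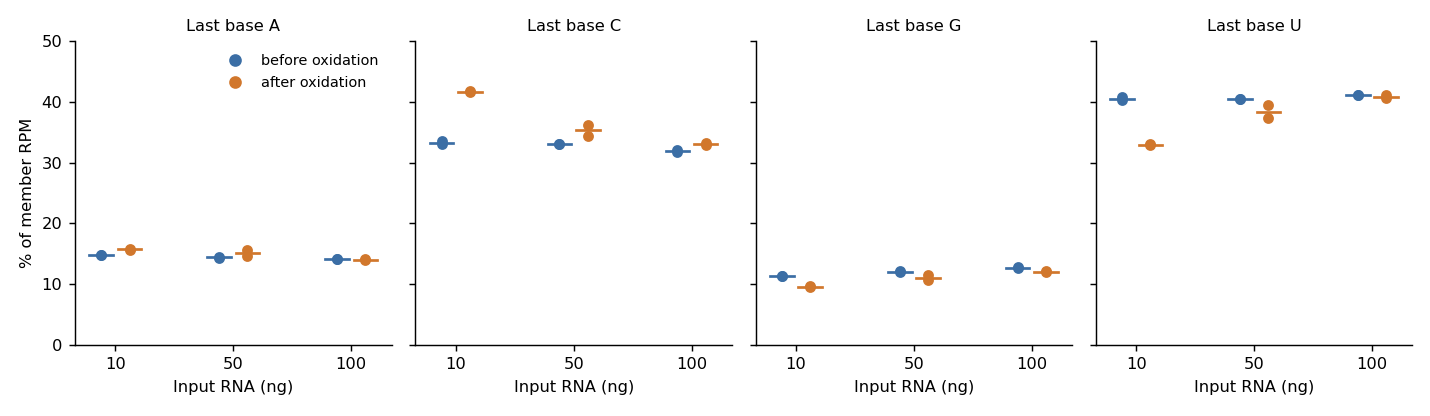
Percent of member RPM by last base (panels A, C, G and U) and input RNA in ng, before (blue) and after (orange) oxidation; points are libraries and bars the mean of 2 technical replicates. Last C reaches 41.7% and 41.8% and last U 32.9% and 33.1% in the oxidized libraries from 10 ng, while at 100 ng the 2 states lie close together.

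Part of the rise of last C at 29 nt came with member 9, which ends in C. The 29 nt members ending in C rose by 2.82 percentage points of member RPM (adjusted p = 0.0165 over 16 classes of length and last base, exact permutation), and by 0.644 without member 9. The 30 nt members ending in C rose by 0.974 points (adjusted p = 0.0165, exact permutation), by 0.958, 1.04 and 0.924 at the 3 inputs. The 29 nt members ending in G fell from 3.91% to 2.68% (adjusted p = 0.0165, exact permutation), with differences of -1.59, -1.16 and -0.935 points at 10, 50 and 100 ng. The 31 nt members ending in U fell by 1.23 points (adjusted p = 0.0165, exact permutation), mostly at 10 ng, with differences of -2.61, -0.885 and -0.185 points at 10, 50 and 100 ng. Compared with the sequences of the same lengths and first base without A10, members ended more often in U before oxidation, by 1.76 percentage points ± 0.47 (SD, n = 6), and less often in C (difference -2.04 ± 0.38). The excess of last U over those sequences dropped by 2.14 points after oxidation (adjusted p = 0.0185 over 4 bases, exact permutation), and the difference for last A, -1.30 points before oxidation, changed by 0.932 points towards 0 (adjusted p = 0.0185, exact permutation). The differences for last G and last C changed by 0.725 and 0.485 points (adjusted p of 0.0617 and 0.389, exact permutation).

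The base content inside the members changed as well. Over positions 2 to 28 without position 10, a measure added after seeing the data, U made up 24.2% ± 0.57 of the bases by RPM before oxidation and 27.1% ± 1.2 after it, A 32.2% ± 0.17 and 31.1% ± 0.62, and G 23.4% ± 0.28 and 22.0% ± 0.16 (SD, n = 6). U rose by 5.01 percentage points with 10 ng, 2.33 with 50 ng and 1.42 with 100 ng. For G the differences were -1.54, -1.41 and -1.16 points. All 3 had an exact permutation p of 0.00926 and an adjusted p of 0.0123, and the groups did not overlap, while C did not pass (adjusted p = 0.241, exact permutation). U, A and G had differences of 1.87, -0.699 and -1.28 without the 10 ng libraries. With each distinct sequence counted once, A content was instead higher after oxidation by 0.579 points and C content lower (difference -0.620), both called (exact permutation p = 0.00926).

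To see whether forms of different length with the same 5' end responded alike, tested members, those whose mean reached 5 RPM over the 12 libraries, were gathered into families that share the first 24 nt. There were 3240 such families, of which 958 held 2 or more tested members and none more than 4, and together they made up 20.3% of piRNA RPM before oxidation. Within these families the forms of 29 to 32 nt rose from 77.66% ± 0.38 to 80.16% ± 0.29 of RPM (SD, n = 6; exact permutation p = 0.00926, adjusted p = 0.0185 over 2 values), with no overlap between groups. They rose by 2.92 percentage points with 10 ng, 2.39 with 50 ng and 2.21 with 100 ng. The families were chosen by forms of 29 to 32 nt that reached 5 RPM over libraries of both states, while other lengths faced no limit. The share and its test do not allow for this choice, so the rise may in part be built into it. The RPM-weighted mean length was 29.49 nt before and after oxidation (adjusted p = 0.787, exact permutation). This value depended on the sequences counted, with called differences of 0.0247 nt over sequences of at least 5 RPM, -0.123 nt with each distinct sequence counted once and -0.0814 nt for families sharing the first 20 nt.

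By single length, shares of 12 lengths from 24 to 35 nt were compared, a set added after seeing the data. The choice of families by members of 29 to 32 nt bears on these shares too. The shares of 26, 27 and 28 nt fell from 4.83% to 4.41%, 5.67% to 4.86% and 7.51% to 7.12%, and 25 nt fell from 1.87% to 1.63% (adjusted p = 0.0185 for 26, 27 and 28 nt and 0.0476 for 25 nt, exact permutation). The forms beyond 32 nt fell most in relative terms. The share of 33 nt fell from 0.867% to 0.573%, that of 34 nt from 0.265% to 0.0974% and that of 35 nt from 0.139% to 0.0645% (adjusted p = 0.0185 each, exact permutation). For 34 nt the log2 ratio was -1.63 with 10 ng, -1.56 with 50 ng and -1.22 with 100 ng. The 24 nt share went from 0.929% to 1.02%, with log2 ratios of 0.13, 0.19 and 0.10 at the 3 inputs, and did not pass (adjusted p = 0.0556, exact permutation). None of 29, 30, 31 and 32 nt passed, and at 29 nt the log2 ratio was 0.34 at 10 ng, where member 9 was highest, and 0.02 and -0.04 at 50 and 100 ng.

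**Figure D4:**
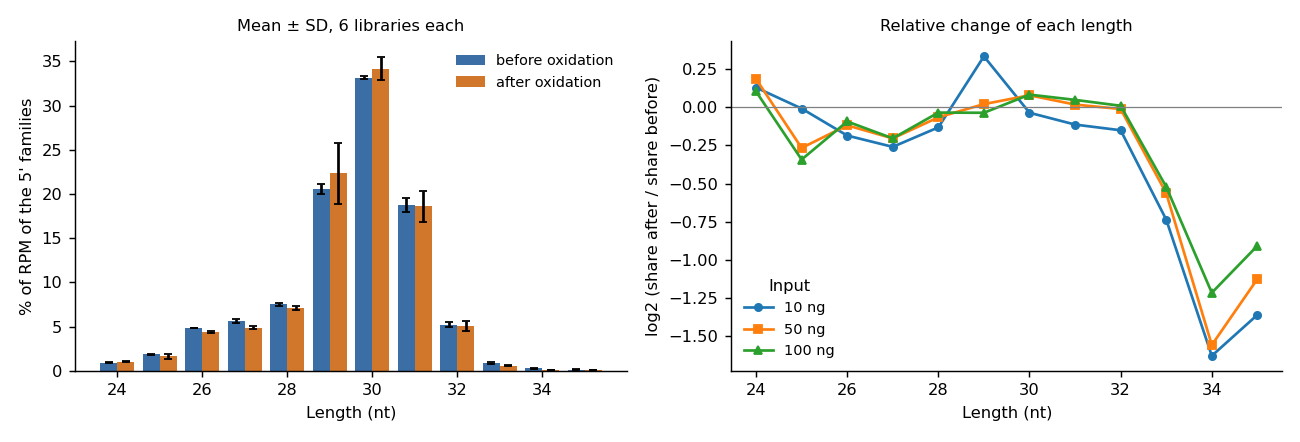
Forms of 24 to 35 nt that share their first 24 nt with a member of at least 5 RPM. Left, percent of the families' RPM by length in nt, mean and SD of 6 libraries before (blue) and after (orange) oxidation; right, log2 ratio of the share after to the share before at each input, where 33 to 35 nt lie lowest at all 3 inputs.

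The most abundant family was that of members 1 and 6, with 5028 RPM before oxidation and 6191 RPM after it. Its 31 nt form (member 1) had 2798 RPM before oxidation, the 30 nt form (member 6) 994 RPM, the 26 nt form 455 RPM, the 29 nt form 244 RPM, the 28 nt form 162 RPM and the 33 nt form 128 RPM. After oxidation they had 3401, 1382, 568, 299, 173 and 174 RPM, in the same order but for the last 2, which were level. The second family, that of member 2, was led by its 30 nt form with 2075 RPM, and a 25 nt form with 257 RPM was nearly as abundant as its 29 nt form with 283 RPM. The third family, that of member 8, had 29 nt (854 RPM) and 26 nt (359 RPM) as its leading forms before oxidation. After it they stood at 446 and 132 RPM, and the 28 nt form went from 16.3 to 0.0581 RPM.

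The sums of the members differed between inputs already before oxidation. From 100 to 10 ng before oxidation, 7 of 10 sums differed at an adjusted p below 0.05 in an exact permutation of the input labels over 6 libraries. The length shares add up to a whole, as do the last base shares, so the 10 sums are not independent. The 29 nt share was 28.8% and 28.7% at 10 ng against 26.98% and 26.9% at 100 ng, and the 31 nt share 22.6% in both libraries against 24.5% and 24.4% (adjusted p = 0.0317 each, exact permutation). After oxidation 9 of 10 sums differed. The 29 nt share was then 7.74 percentage points and the last C share 8.63 points higher at 10 ng, and the last U share 7.90 points lower (adjusted p = 0.037 each, exact permutation). The A10 share of the class did not differ with input before oxidation (difference -0.000415 points, exact permutation p = 1) and was 1.37 points lower at 10 ng after it (adjusted p = 0.0494, exact permutation).

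Single members were tested where their mean over the 12 libraries was at least 5 RPM. Of the 94768 members 4500 passed that limit, 19.8% of the 22726 sequences tested, and they held 69.9% to 79.9% of member RPM per library. The lowest tested member had 5.0003 RPM and the highest untested one 4.9988 RPM. On log2(RPM + 1), 1009 members were called higher after oxidation and 1028 lower (limma, Benjamini-Hochberg adjusted p below 0.05 over all 22726 sequences). Over all sequences tested, 21.2% were called higher and 22.8% lower, and the members' counts are 22.4% and 22.8% of 4500, close to that background. The median log2 fold change was -0.10 for members, -0.14 for all sequences tested and 0.03 for the sequences of the same lengths and first base without A10. The split of higher and lower calls depended on the scale. It was 693 and 1443 with edgeR and TMM, 663 and 1758 with DESeq2, and 43 and 3925 after scaling to methylated spike-in reads. The lower calls were 1675 without replicate 1 from 10 ng after oxidation. Without the 10 ng libraries the split was 1161 and 562, with a median of 0.27 for members and 0.23 for all. These alternatives moved the median of all tested sequences to -0.40 with edgeR, -0.64 with DESeq2 and -2.59 with spike-in scaling.

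Of the most abundant members, members 1 and 2 were lower after oxidation at 10 ng and higher on average at 50 and 100 ng, while members 3 and 4 were lower at all 3 inputs. Member 1 had 1612 and 1650 RPM with 10 ng, 2816 and 2665 with 50 ng and 3820 and 4229 with 100 ng before oxidation. After it there were 1019 and 935.5 RPM with 10 ng, 4288 and 3061 with 50 ng and 5380 and 5722 with 100 ng. The averaged log2 fold change was 0.04 (SE 0.08, limma adjusted p = 0.696), and the response differed between 10 and 100 ng (interaction log2 -1.20, limma adjusted p = 0.00244). With edgeR the average was -0.40 and with DESeq2 -0.63, both called (adjusted p of 0.00752 and 4.18e-05). Member 2 had 1650 and 1659 RPM at 10 ng before oxidation and 481 and 449 after it, while at 100 ng it had 2249 and 2533 before and 3562 and 3511 after. Its averaged log2 fold change of -0.28 (limma adjusted p = 0.0246) became 0.50 without the 10 ng libraries (limma adjusted p = 0.0183), and its call was lost without any 1 of 7 single libraries.

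Members 3, 4 and 5 fell by 1.03, 1.08 and 0.87 on the log2 scale on average (limma adjusted p of 4.03e-05, 0.000126 and 0.00031). Member 3 had 1426 and 1481 RPM at 10 ng before oxidation and 292 and 227 RPM after it, and 845 and 804 RPM against 786 and 738 RPM at 100 ng. It was lower after oxidation in 6 of 6 same-numbered pairs, as was member 4. Without the 10 ng libraries none of the 3 passed (log2 -0.30, -0.33 and 0.04, limma adjusted p of 0.101, 0.124 and 0.856). Member 6, the 30 nt form of member 1, rose (log2 0.38, SE 0.09, limma adjusted p = 0.0105), with 0.03 with 10 ng, 0.53 with 50 ng and 0.57 with 100 ng, although edgeR and DESeq2 put it at -0.07 and -0.30 with no call. Member 7, the highest that ends in A, had 946 and 1020 RPM at 10 ng before oxidation and 117 and 120 RPM after it, but 736 and 788 RPM against 1051 and 1187 RPM at 100 ng.

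Member 9 was the highest member after oxidation at 10 ng. It had 475 and 491 RPM with 10 ng, 796 and 821.5 with 50 ng and 1019 and 952 with 100 ng before oxidation. After oxidation it reached 10168 and 9742 RPM with 10 ng, 2349 and 3720 with 50 ng and 2252 and 2073 with 100 ng. All 6 libraries after oxidation were above all 6 before it, and the order of the inputs was turned around. The averaged log2 fold change was 2.45 (SE 0.10, limma adjusted p = 1.8e-06), and 1.501 without the 10 ng libraries (limma adjusted p = 5.11e-06). Scaled to methylated spike-in reads it was -0.53. The effect at 10 ng exceeded that at 100 ng by 3.23 on the log2 scale (limma adjusted p = 0.00023). Member 9 was chosen by its level after oxidation at 10 ng. The p-values that use the 10 ng libraries do not allow for this choice.

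A further group of members nearly vanished after oxidation at every input. At a log2 fold change of -3 or lower in all 3 inputs there were 37 of 4500 members (0.822%), against 0.981% of all sequences tested. Together they went from 1401 to 51.4 RPM, and they fell into 27 families. Member 13 had 72.9 to 99.3 RPM in the 6 libraries before oxidation. After it there were 0 RPM in both libraries with 10 ng, 5.2 and 3.1 with 50 ng and 3.0 and 2.5 with 100 ng. Member 16, its form 1 base shorter at the 3' end, had 42.9 to 55.8 RPM before oxidation and was at 0 in 5 of 6 libraries after it, with 1.2 RPM in the other. The libraries before and after oxidation did not overlap for either form.

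Members 14 and 15 had 72.2 RPM ± 19.7 and 49.3 RPM ± 9.5 before oxidation (SD, n = 6), from 1258 and 882 reads, and 8 reads and 1 read after it. Member 17 had 672 reads before oxidation and 9 after it. The fitted log2 fold changes of these 5 members ran from -4.80 to -5.71 (limma adjusted p from 1.84e-06 to 1.43e-05, lower in 6 of 6 pairs each). Values this close to 0 reads depend on the pseudocount of 1 RPM. Members 13 to 17 had means of at most 2.31 RPM after oxidation. They passed the limit of 5 RPM only through the libraries before it, which their p-values do not allow for. In all, 453 members were called lower and also lower in all 6 same-numbered pairs, and 723 called higher and higher in all 6. These counts served only to choose the named members. They were not made over all sequences tested, so they show nothing particular to the members, and replicate numbers did not pair the libraries.

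Rises of that size at every input were rarer, with 3 of 4500 members (0.0667%) at a log2 fold change of 3 or higher, against 0.0748% of all sequences tested. These were members 20, 21 and 22, with means of 1.55, 0.632 and 0.444 RPM before oxidation and 46.4, 25.3 and 33.2 RPM after it. Members 18 and 19 were not among them, with higher levels at 10 ng than at 100 ng after oxidation. Member 19 had 0.9 to 2.7 RPM in the 6 libraries before oxidation, and 111.5 and 95.1 RPM with 10 ng, 38.0 and 36.5 with 50 ng and 15.8 and 14.8 with 100 ng after it. Its log2 fold change was 3.91 (SE 0.22, limma adjusted p = 6.6e-06). Member 18 had 0.7 to 13.5 RPM before oxidation and 248 and 293 RPM at 10 ng after it, with 41.2 to 70.3 RPM at the other inputs (log2 3.92, SE 0.33, limma adjusted p = 3.56e-05). Member 21 had similar levels at the 3 inputs after oxidation, with 35.6 and 20.3, 26.9 and 28.05, and 20.3 and 20.5 RPM after oxidation and at most 1.5 RPM before it. Members 19 to 22 had means of at most 1.75 RPM before oxidation. They passed the limit of 5 RPM only through the libraries after it. Their rise is thus in part built into the choice of tested sequences, which the fold changes, p-values and counts do not allow for.

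Members rich in U inside had the higher fold changes. Members with at least 9 U in 26 inner positions (1088 members) had a median log2 fold change of 0.53, with 35.3% called higher and 12.3% lower. Those with at most 4 U (893 members) had a median of -0.68, with 10.8% called higher and 35.6% lower (limma). Among all 22726 sequences tested, of any U content, these shares were 21.2% and 22.8%. Sequences outside the members were not split by U content, so the trend is not shown to be particular to the members. The medians at 10, 50 and 100 ng were 0.58, 0.67 and 0.57 for the former and -1.69, -0.24 and 0.01 for the latter, so the U-poor members were lower at 10 ng than at the other inputs. For G the order was turned around, with a median of 0.29 for at most 4 G and -0.52 for at least 9 G. Across the 4500 tested members the log2 fold change and the number of inner U had a Pearson r of 0.32 and a Spearman rho of 0.33. The members share libraries and many share a 5' end, so this is a description. By last base the medians were 0.08 for C, -0.14 for A, -0.20 for G and -0.21 for U, and by length 0.05 at 30 nt and -0.48 at 32 nt.

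**Figure D5:**
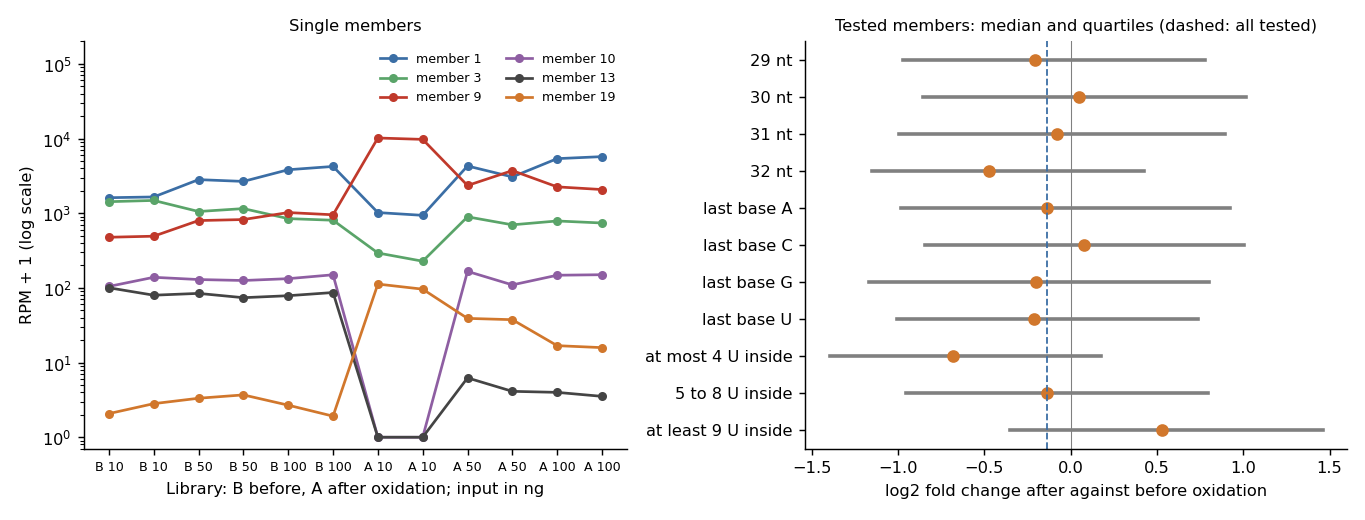
Left, RPM + 1 (log scale) of 6 members in each of the 12 libraries, B before and A after oxidation with the input in ng, where lines only join the values of a member; member 9 is highest after oxidation at 10 ng and members 10 and 13 are at 0 RPM there. Right, median (point) and quartiles (bar) of the log2 fold change of tested members by length, last base and number of U in 26 inner positions, with the median of all tested sequences dashed.

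More single members were called between inputs after oxidation than before it. The fit shared 1 spread over all 6 groups. Replicates differed more at 10 ng after oxidation (chi-square per degree of freedom 25.5) than in the groups before it (2.16 to 3.89). A shared spread makes calls easier in the noisier group and harder in the others, so the counts before and after oxidation are not on equal terms. Between 10 and 100 ng before oxidation, 51 members were called higher and 46 lower at 10 ng (limma, of 4500), against 1.06% and 0.744% of all sequences tested, and 327 and 428 had an unadjusted p below 0.05. After oxidation 548 were called higher and 1364 lower, against 12.5% and 28.8% of all. The response to oxidation differed between 10 and 100 ng for 385 members in the higher direction and 1020 in the lower (limma interaction), against 7.9% and 21.1% of all. The members' shares were thus close to the background after oxidation and for the interaction. Before oxidation few sequences were called. Those lower at 10 ng were 46 of 4500 members and 169 of all 22726, a somewhat larger share of the members, and this difference was not tested. These counts moved when single libraries were left out. Where this left a group with 1 library, the lone library was assumed to vary like the other groups. For input before oxidation, leaving out 1 library from 10 or 100 ng before it left at most 1 member called, and leaving out 1 from 50 ng left 17 or 18 higher and 15 lower. Leaving out either library from 10 ng after oxidation raised the counts to 326 and 417, or 327 and 422, and either from 100 ng after it brought them to 24 and 17. For input after oxidation, the higher calls were 923 and 850 without either library from 10 ng and 315 and 280 without either from 100 ng, and the lower calls 2151 without replicate 1 from 10 ng. For the interaction, the higher calls ran from 184 without replicate 2 from 100 ng before oxidation to 825 without replicate 1 from 10 ng after it, and the lower calls from 666 to 1885 without the same libraries.

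The smallest interaction p belonged to members that were absent from both libraries at 10 ng after oxidation. Member 10 had 104 and 138 RPM at 10 ng before oxidation and 0 RPM in both libraries after it. At 50 ng it had 128 and 125 RPM before and 165 and 109 RPM after, and at 100 ng 132 and 149 RPM before and 147 and 149 RPM after. Its interaction was -6.99 on the log2 scale (SE 0.38, limma adjusted p = 0.00018). Members 11 and 12 were also without a read there, with 74.7 and 77.0 RPM and 59.3 and 65.3 RPM at 10 ng before oxidation and 0 RPM in both libraries after it (interaction -6.01 and -5.87, limma adjusted p = 0.00018 each). A count of 0 in these 2 libraries allows up to 1.39 and 1.56 RPM, by counting error only. Of the 4500 tested members, 69.7% and 58.8% were found in the 2 libraries, against 96.1% to 99.3% in the other 10. These shares took all reads of each library, without thinning to equal depth.

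Only a minority of the tested members lay in annotated transcripts. Without mismatch 598 of 4500 (13.3%) matched a transcript of GENCODE M21 (build GRCm38) on either strand, near the 13.7% of all sequences tested, with 495 in sense and 147 in antisense, some in both. Those that matched 1 gene numbered 524, in 89 combinations of gene and strand, and 287 of them were sense to 22 lincRNA genes. The highest summed level was that of 1700001L05Rik (lincRNA, chromosome 15, 83353847 to 83367282, minus strand), with 15 members at 1357 RPM ± 394 before and 1913 RPM ± 988 after oxidation (SD, n = 6). Of its members 3 were called higher by limma. Gm21269 (lincRNA, chromosome 7, 73816546 to 73838898, plus strand) held 62 members at 1029 RPM ± 89.5 before and 2195 RPM ± 705 after, with 17 called higher and 15 lower. At 10 ng its members together had 932 RPM before and 3004 RPM after oxidation. Over all sequences tested 21.2% were called higher and 22.8% lower. The calls in these genes and those below were not tested against these shares.

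Gm10619, which lies beside Gm21269 on the other strand (lincRNA, chromosome 7, 73781429 to 73816503, minus strand), held 24 members at 518 RPM ± 28.4 before and 630 RPM ± 96.2 after, with 8 called in each direction. In Gm21221 (lincRNA, chromosome 5, 149801990 to 149811751, minus strand), 6 of 8 members were called lower by limma, and the sum went from 566 RPM ± 133 to 252 RPM ± 152. Gm5878 (lincRNA, chromosome 6, 85111416 to 85126125, minus strand) held 20 members at 789 RPM ± 206 before and 922 RPM ± 323 after, and 1700042G15Rik (lincRNA, chromosome 4, 57360868 to 57364292, minus strand) held 5 at 599 RPM ± 81.7 and 534 RPM ± 334. Members 18 and 20 lay in these transcripts, member 18 in the 3rd exon of Gm5878 (chromosome 6, 85114928 to 85114957, non-coding) and member 20 in the 1st exon of Gm21269 (chromosome 7, 73817682 to 73817712, non-coding), both in sense. The other named members matched no annotated transcript.

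Members that match many genes had lower summed levels after oxidation, which was not tested. The 23 tested members that matched 5 or more genes had a summed level of 1401 RPM before oxidation and 592 RPM after it, and a median log2 fold change of -1.49, against -0.34 for those matching 1 gene and -0.10 for all tested members. The 51 members matching 2 to 4 genes had 1274 RPM before oxidation and 1232 RPM after it. Antisense matches had a median of -0.68 and sense matches one of -0.39. In sense matches to 1 gene the base of the transcript just after the 3' end was U in 137 of 443 members (30.9%, exact 95% binomial interval 26.6% to 35.5%), A in 25.96%, C in 23.0% and G in 20.1%. In the same class without A10 it was U in 27.9% of 973 sequences (interval 25.1% to 30.8%), C in 19.4% and G in 20.9%. There A was the most frequent, at 31.9% (interval 28.9% to 34.9%), against an interval of 21.9% to 30.3% for A in members. The intervals take each sequence as independent, although many share a 5' end or a transcript. The difference between the 2 sets was not tested.

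A small part of the members started close to each other. Of the tested members 116 (2.58%) had another tested member starting 2 bases downstream with the same next 20 bases, 89 (1.98%) 1 base, 86 (1.91%) 3 bases and 87 (1.93%) 5 bases downstream. At 8 bases there were 31 (0.689%).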

How the data were processed

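The deposited piRNA table holds RPM per distinct sequence, the deposited miRNA table RPM per miRNA name, and the deposited spike-in table raw read counts, 1 blank line of which was left out. Bowtie and the builds mm10 and hg38 are named, per the submitters' processing notes, without versions or roles. No source used here gives the denominator of RPM. The smallest step between values, worth 1 read, gave it, and 100% of piRNA values came out whole within 0.1 of a read.

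Members were taken from all rows by length, first base and position 10. The members, gene lists and rules were chosen with earlier results of these data known. For sums, the oxidation labels were permuted exactly within each input, 2-sided (216 assignments, smallest p 0.00926) or the input labels (90 assignments, smallest p 0.0222), with Benjamini-Hochberg adjustment over each set of values. Single sequences whose mean reached 5 RPM were modelled on log2(RPM + 1) as 6 group means by limma 3.58.1 with a mean trend, in R 4.3.3. Alternatives were pseudocounts of 0.1 and 10, filters, scalings, edgeR 4.0.16 and DESeq2 1.42.0 on the recovered reads, a replicate block and leaving out each library. Only the limma contrast of oxidation averaged over inputs was tried on simulated reads, with the same dispersion in every group. The real groups differed in spread, so that trial does not cover them. Intervals and limits of counts cover counting error only, since reads carry no molecular identifiers.

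The rule for named members took the 6 with the highest means before oxidation, 5 falls and 5 rises of greatest size among those called and moved alike in all 6 same-numbered pairs, the highest of each length and last base, and the 3 smallest interaction p. Members matching a transcript on chromosome 18 were skipped (26 tested members). The families were the 3 and the genes the 6 with the highest RPM before oxidation. Transcripts came from GENCODE M21, and no genome was used here. The miRNA markers were miR-34c-5p, miR-34b-3p, miR-449a-5p, miR-741-3p, miR-871-3p and miR-880-3p (germ cells, 26.8 to 28164 RPM before oxidation), miR-202-5p (Sertoli cells, 137 RPM), miR-1a-3p and miR-133a-3p (muscle, 97.6 and 2.10 RPM), and those of liver, neurons and red blood cells in the text.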

Additional observations from a re-analysis of the deposited data

Results flagged for a closer look

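The response to oxidation differed between 10 and 100 ng for 4 named members, by the limma interaction on the log2 scale: 3.23 for member 9, -6.99 for member 10, -6.01 for member 11 and -5.87 for member 12. Member 9 was chosen by its level after oxidation at 10 ng, and members 10, 11 and 12 by their small interaction p. Members 10, 11 and 12 had no read in either library at 10 ng after oxidation.

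Some sums over the members moved one way at 10 ng and the other way at 100 ng in all comparisons of libraries before and after oxidation; this difference was not tested. The members' share of piRNA RPM changed by -0.516 percentage points at 10 ng and 0.865 at 100 ng. The 29 nt share changed by 4.31 points at 10 ng and -1.62 at 100 ng, the 30 nt share by -1.22 and 1.54, and the 31 nt share by -2.05 and 0.363. The share of last A changed by 0.959 points at 10 ng and -0.169 at 100 ng.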

How the results depend on the processing

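Values below are differences after minus before oxidation in percentage points, with calls from the exact permutation test, unless said otherwise; the causes of these changes were not tested. Summing only sequences of at least 5 RPM gave an A10 share difference of -0.112 and a 32 nt one of -0.231, neither of them called, turned the 30 nt share to -0.167, the A10 share to 0.801 at 29 nt and 0.0367 at 31 nt, and gave a mean family length of 0.0247 nt more, which was called. Counting each distinct sequence once called the members' share (2.32), the 30 nt share (2.39), the A10 share at 29, 30, 31 and 32 nt (-1.04, -1.17, -1.35 and -1.67), mean family length (-0.123 nt), A content (0.579, turned) and C content (-0.620), lost last U (-0.596) and turned the 29 nt share (-0.324). The share of all RPM was called (2.37), as was mean family length with the first 20 nt (-0.0814 nt).

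Without member 9 the share of the members was -0.0178, the 29 nt share -1.06, the 30 nt share 1.57 (called), last A 0.920 (called), A10 at 29 nt -2.10 (called) and mean family length 0.00827 nt. Without the 10 ng libraries, which leave too few for the test, the 29 nt share was -1.11, the 31 nt share 0.0831, A10 at 32 nt -0.386, mean family length 0.0229 nt and C content 0.111. Leaving out each library in turn changed the calls of 6 sums: the 32 nt share ranged from -0.675 to -0.468 and lost its call without any 1 of the 4 libraries from 50 and 100 ng before oxidation, last U (-3.68 to -2.97) without either from 50 ng before it, the members' share (0.251 to 0.471) was called without replicate 2 from 10 ng after it, and A10 at 27 nt (-3.48 to -3.26), 28 nt (-1.72 to -1.38) and 30 nt (-1.86 to -1.48) without replicate 2 from 100 ng after it.

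Replicate numbers did not pair the libraries: the differences between replicates correlated by -0.0757 to 0.0296 over 15 pairs of groups, none above 0.1. With a replicate block, the 32 nt share (-0.571) and the 29 to 32 nt share of families (2.51) were no longer called, with adjusted p of 0.125 and 0.0625 by exact sign flips (smallest p 0.0312). Members called between 10 and 100 ng before oxidation went from 51 and 46 to 28 and 22 with the replicate block in limma.

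Counts of called members, higher and lower, moved by more than 1.5 times as follows. With a filter of 50 RPM, which left 434 members, they were 115 and 165 for oxidation, 72 and 254 for input after oxidation and 73 and 219 for the interaction. With no filter they were 328 and 312 for oxidation, 11 and 16 for input before it, 44 and 423 after it and 21 and 127 for the interaction. Spike-in scaling gave 43 and 3925 for oxidation, 266 and 116 for input before it, 82 higher for input after it and 109 higher for the interaction. DESeq2 gave 663 and 1758, 173 and 135, 303 higher and 249 higher in the same order. With edgeR there were 23 lower for input before oxidation, 125 higher after it and 135 higher for the interaction, a pseudocount of 10 gave 100 higher for input before oxidation, and without the 10 ng libraries 562 were lower after oxidation. Leaving out single libraries gave 844 to 1675 lower for oxidation, 0 to 327 higher and 0 to 422 lower for input before it, 280 to 923 higher and 1062 to 2151 lower for input after it, and 184 to 825 higher and 666 to 1885 lower for the interaction. Where no member was called for input before oxidation, 201 to 365 of 4500 had an unadjusted limma p below 0.05 in a direction.

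Of named members, member 1 turned to -0.133 over piRNA reads, -0.16 with centred medians, -2.94 with spike-in scaling, -0.40 with edgeR, -0.63 with DESeq2 and -0.0381 to 0.124 without single libraries (log2). Member 6 turned to -2.61 with spike-in scaling, -0.0657 with edgeR and -0.30 with DESeq2, and member 9 to -0.53 with spike-in scaling. Without the 10 ng libraries members 2, 5, 7 and 10 turned to 0.50, 0.0407, 0.29 and 0.0807. Depth limits single members most at 10 ng after oxidation, where 3 reads equal 1.39 and 1.56 RPM.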
